A study of Caenorhabditis elegans with 6 samples.

Results

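The expression of 40 genes of the *Caenorhabditis elegans* germline, oocyte and eggshell was followed in whole adult hermaphrodites on *unc-62* RNAi and on control RNAi. The genes were taken as a list of symbols, sorted here by role. No measured value entered the rule, but the list was chosen with earlier results of these data known. All 40 matched an identifier among the 17682 genes of the data, and 39 passed the filter on low reads that left 7333 genes for testing. *fbf-1* was below that filter. Messenger RNA was sequenced from its 3′ end in 3 libraries from worms on *unc-62* RNAi, fed bacteria making *unc-62* double-stranded RNA, and 3 libraries from worms on control RNAi, fed bacteria with the empty vector.

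All worms, controls included, were of strain TJ1060, labelled *fem-15(b26);spe-9(hc88)*, which is sterile after growth at 25°C. They were moved to RNAi bacteria on day 1 of adulthood and kept at 20°C for 3 days, so that both groups were day 4 adults. About 10000 worms made up each of the 3 batches, which were split between the treatments. The study states in general that RNAi in adults was done on plates with FUDR, a drug that blocks DNA synthesis. Its description of these batches does not itself mention FUDR. Each library is a pool of whole animals, so fewer germ cells and less RNA per germ cell cannot be told apart. Lane and treatment cannot be told apart either, because each treatment was sequenced in a lane of its own.

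In the *C. elegans* gonad, Notch signalling through GLP-1 keeps germ cells dividing at the distal end, and the FBF and GLD RNA regulators control the move from division to meiosis. Meiotic chromosomes are organised along protein axes and joined by the synaptonemal complex. Growing oocytes take up yolk made in the intestine and store maternal mRNAs in a translationally silent state with RNA-binding proteins, in P granules and other ribonucleoprotein particles (mRNPs). The eggshell is laid down around the egg upon fertilization, from proteins and enzymes that the oocyte makes in advance. The *unc-62* gene encodes a TALE-class homeodomain protein of the Meis family and is known for its part in patterning the animal during development.

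Libraries were scaled by 15188765 to 22868980 uniquely mapped reads, and values are given as RPM, reads divided by this number and multiplied by 1000000, for the transcript of a gene with the highest mean. Reads come from the 3′ ends of mRNA, and RPM are not divided by transcript length. A higher RPM in one gene than in another means more uniquely mapped reads and not by itself more mRNA. *unc-62* itself had 17, 39 and 25 reads on *unc-62* RNAi, against 27, 31 and 26 reads on control RNAi, so the target did not separate the groups at this depth. The groups did not overlap in the 6 vitellogenin (yolk protein) genes, whose summed level was between 3534 and 5256 RPM on *unc-62* RNAi and between 28394 and 46625 RPM on control RNAi. Replicate 3 stood apart, since the standard deviation of the log2 ratio of *unc-62* RNAi to control RNAi across the 7333 tested genes was 1.23 in replicate 3, against 0.66 in replicate 1 and 0.70 in replicate 2.

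None of the 39 tested germline, oocyte and eggshell genes was called at an adjusted p of 0.1 by limma, the linear model fitted across all tested genes, which called 1.31% of the 7333 genes (36 higher and 60 lower on *unc-62* RNAi). At an unadjusted p of 0.05, *htp-3* and *mex-3* passed, both lower, which is 2 of 39 germline genes where 13.3% of all tested genes passed. With no replicate block 0 of the 39 passed at that level, and without replicate 1 also 0. On the recovered reads edgeR called 1.38% and DESeq2 4.01% of the tested genes, and each called 0 of the 39, with 2 at an unadjusted p of 0.05. For edgeR and DESeq2 the share of all tested genes at that unadjusted level was not counted. Among the 39 the lowest adjusted p of limma was 0.27. The median log2 fold change of the 39 genes was -0.01, against 0.04 for all tested genes, with 18 above 0 and 21 below 0. All 40 genes were read in all 6 libraries, from 5 reads for *fbf-1* to 94708 reads for *perm-4*.

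The precision of these fold changes differed from gene to gene. The 95% interval of the log2 fold change lay between -1 and 1 for 27 of the 39 genes, so that for these a change of over 2-fold in either direction was outside the interval. For the other 12 it reached beyond that size. The median standard error was 0.23 for the 39 genes and 0.26 for all tested genes, with a range among the 39 from 0.13 for *perm-4* to 1.01 for *glh-1*. A single tested gene, *syp-1*, had libraries that did not overlap between the treatments, where 13.4% of all tested genes did not overlap.

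**Figure D1:**
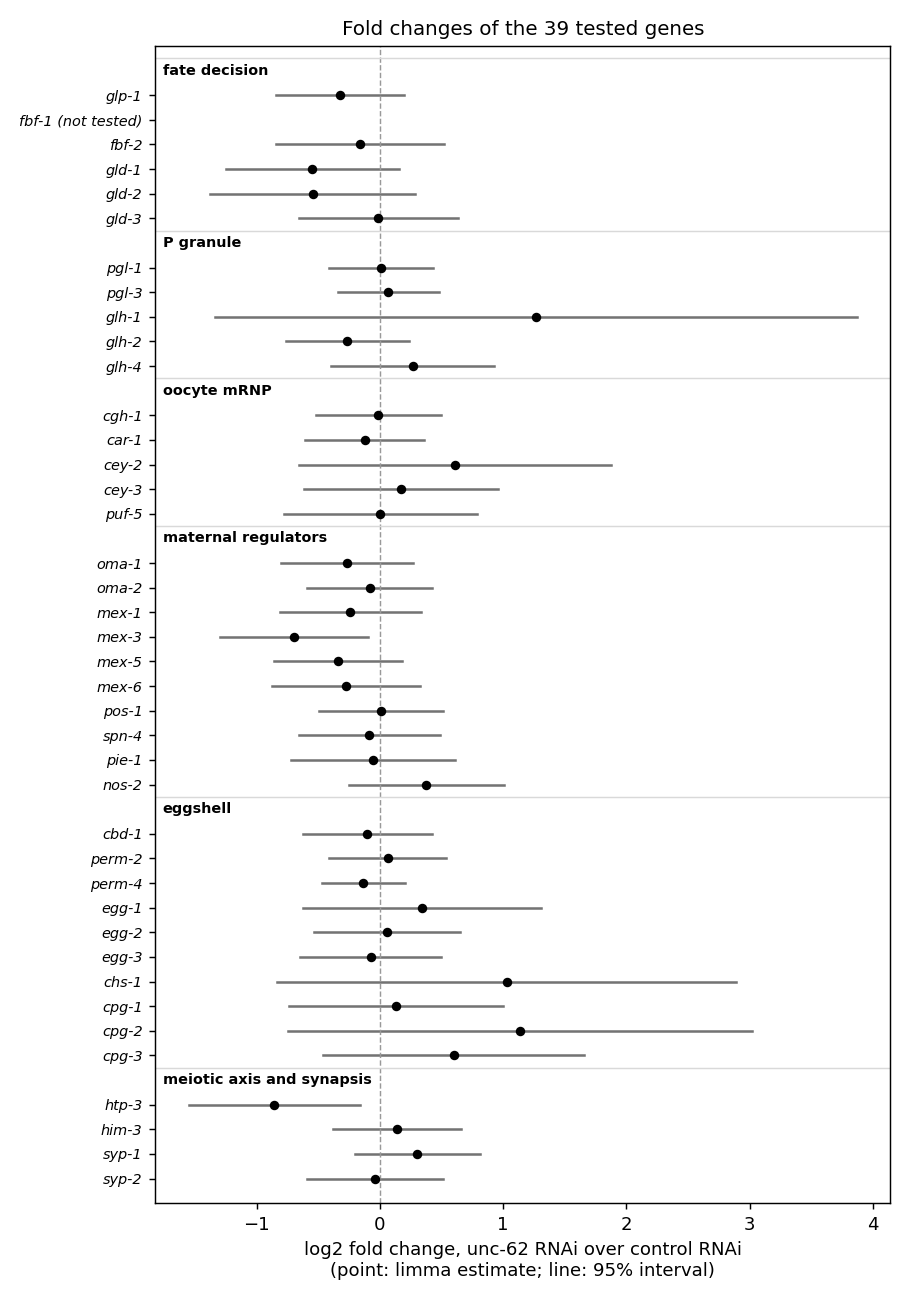
Log2 fold change of *unc-62* RNAi over control RNAi (x axis) for the 39 tested genes, grouped by role. Points are limma estimates with 3 libraries per group and lines are 95% intervals; the intervals of 2 genes, *htp-3* and *mex-3*, lie below 0, and that of *glh-1* is the widest.

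The 6 genes of the decision between division and meiosis had between 5 and 303 reads per library, and 0 of them were called. *glp-1*, the Notch receptor of dividing germ cells, had 2.16, 2.23 and 1.24 RPM on *unc-62* RNAi, against 2.63, 2.51 and 1.72 RPM on control RNAi, and was lower in every replicate (log2 fold change -0.33, SE 0.20). Its groups overlapped (adjusted p = 0.61). *gld-1*, a translational repressor needed for meiosis and oogenesis, had 14.2, 12.6 and 6.22 RPM on *unc-62* RNAi, against 16.5, 14.4 and 14.1 RPM on control RNAi. Replicate 3 on *unc-62* RNAi stood below the other 5 libraries, and the log2 fold change of -0.55 (95% interval -1.25 to 0.15, adjusted p = 0.50) was -0.23 without replicate 3. The same library was lowest for *gld-2*, a cytoplasmic poly(A) polymerase, at 2.74, 1.62 and 0.811 RPM on *unc-62* RNAi, against 2.77, 1.87 and 2.14 RPM on control RNAi, and its log2 fold change of -0.55 was -0.13 without replicate 3. *gld-3*, a KH-domain partner of GLD-2, had 4.03, 2.75 and 2.59 RPM on *unc-62* RNAi, against 2.83, 2.92 and 3.40 RPM on control RNAi, and both groups lay in the same range (log2 fold change -0.01, SE 0.25).

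The paralogs *fbf-1* and *fbf-2* encode near-identical PUF-family repressors, and reads that fit both were left out by the unique mapping, so that their levels are uncertain. *fbf-1* had 14, 23 and 8 reads on *unc-62* RNAi, against 5, 5 and 5 reads on control RNAi, and all 3 *unc-62* RNAi libraries lay above all 3 control libraries. Without the filter on low reads its log2 fold change was 1.18, with an adjusted p of 0.43. *fbf-2* had 14, 24 and 14 reads on *unc-62* RNAi, against 18, 16 and 17 reads on control RNAi, with overlapping groups (log2 fold change -0.16, SE 0.26). All 5 tested genes of this role had a log2 fold change below 0, with a median of -0.33, and 0 of the 5 were called.

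P granules are the perinuclear RNA granules of germ cells. Their core proteins PGL-1 and PGL-3 come from 2 of the steadiest genes of the list, which differed at most 1.20-fold and 1.14-fold between any 2 libraries. *pgl-1* had 402, 429.9 and 396 RPM on *unc-62* RNAi, against 375, 377 and 451 RPM on control RNAi, and *pgl-3* had 365, 337 and 368 RPM on *unc-62* RNAi, against 348, 322 and 332 RPM on control RNAi. Their log2 fold changes were 0.01 (95% interval -0.41 to 0.43) and 0.07 (95% interval -0.34 to 0.48). Among the Vasa-related helicases of these granules, *glh-2* had 21.0, 13.9 and 16.1 RPM on *unc-62* RNAi, against 25.2, 16.4 and 18.6 RPM on control RNAi, and was lower in every replicate (log2 fold change -0.26, SE 0.19). *glh-4* had 17.8, 14.6 and 22.5 RPM on *unc-62* RNAi, against 17.8, 13.7 and 13.1 RPM on control RNAi, and the groups of both helicases overlapped (log2 fold change 0.27, SE 0.26, for *glh-4*).

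*glh-1*, the best known of these helicases, had the widest range of all 40 genes. It was at 161, 53.3 and 371 RPM on *unc-62* RNAi, against 128, 91.6 and 18.5 RPM on control RNAi. The highest and the lowest of the 6 libraries were those of replicate 3, on *unc-62* RNAi and on control RNAi, and they differed 20.0-fold. Within replicate 1 the log2 ratio was 0.31, within replicate 2 it was -0.86 and within replicate 3 it was 4.34. The fitted log2 fold change of 1.27 had a 95% interval of -1.34 to 3.87 (adjusted p = 0.68). It was -0.25 without replicate 3, and with no replicate block it was 0.52 without the *unc-62* RNAi library of replicate 3 and 0.47 without the control library.

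Of the 5 genes for proteins that package stored mRNA in oocytes, 3 had a log2 fold change above 0, 2 had one below 0 and 0 were called. *cgh-1*, a DEAD-box helicase of the DDX6 family, had 53.4, 41.8 and 34.3 RPM on *unc-62* RNAi, against 47.5, 39.5 and 39.97 RPM on control RNAi (log2 fold change -0.01, SE 0.20). *car-1*, an Lsm-domain protein that binds CGH-1, had 69.4, 60.5 and 41.9 RPM on *unc-62* RNAi, against 68.1, 64.5 and 49.3 RPM on control RNAi (log2 fold change -0.12, SE 0.19). In both genes replicate 3 on *unc-62* RNAi was the lowest library, and the groups overlapped.

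*cey-2* and *cey-3* encode Y-box proteins with a cold-shock domain. *cey-2* had 1416, 961 and 2687 RPM on *unc-62* RNAi, against 1323, 1155 and 642 RPM on control RNAi, so that replicate 3 again held both the highest and the lowest library. Its log2 fold change was 0.61 (95% interval -0.66 to 1.87, adjusted p = 0.68) and -0.11 without replicate 3. *cey-3* had 108, 104 and 177 RPM on *unc-62* RNAi, against 136, 106 and 92.9 RPM on control RNAi (log2 fold change 0.17, SE 0.31). *puf-5*, a PUF-family repressor of late oogenesis, had 8.88, 4.07 and 10.9 RPM on *unc-62* RNAi, against 10.9, 5.204 and 6.62 RPM on control RNAi, with a log2 fold change of 0.00 and a 95% interval of -0.78 to 0.78. The median of the 5 mRNP genes was 0.00.

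**Figure D2:**
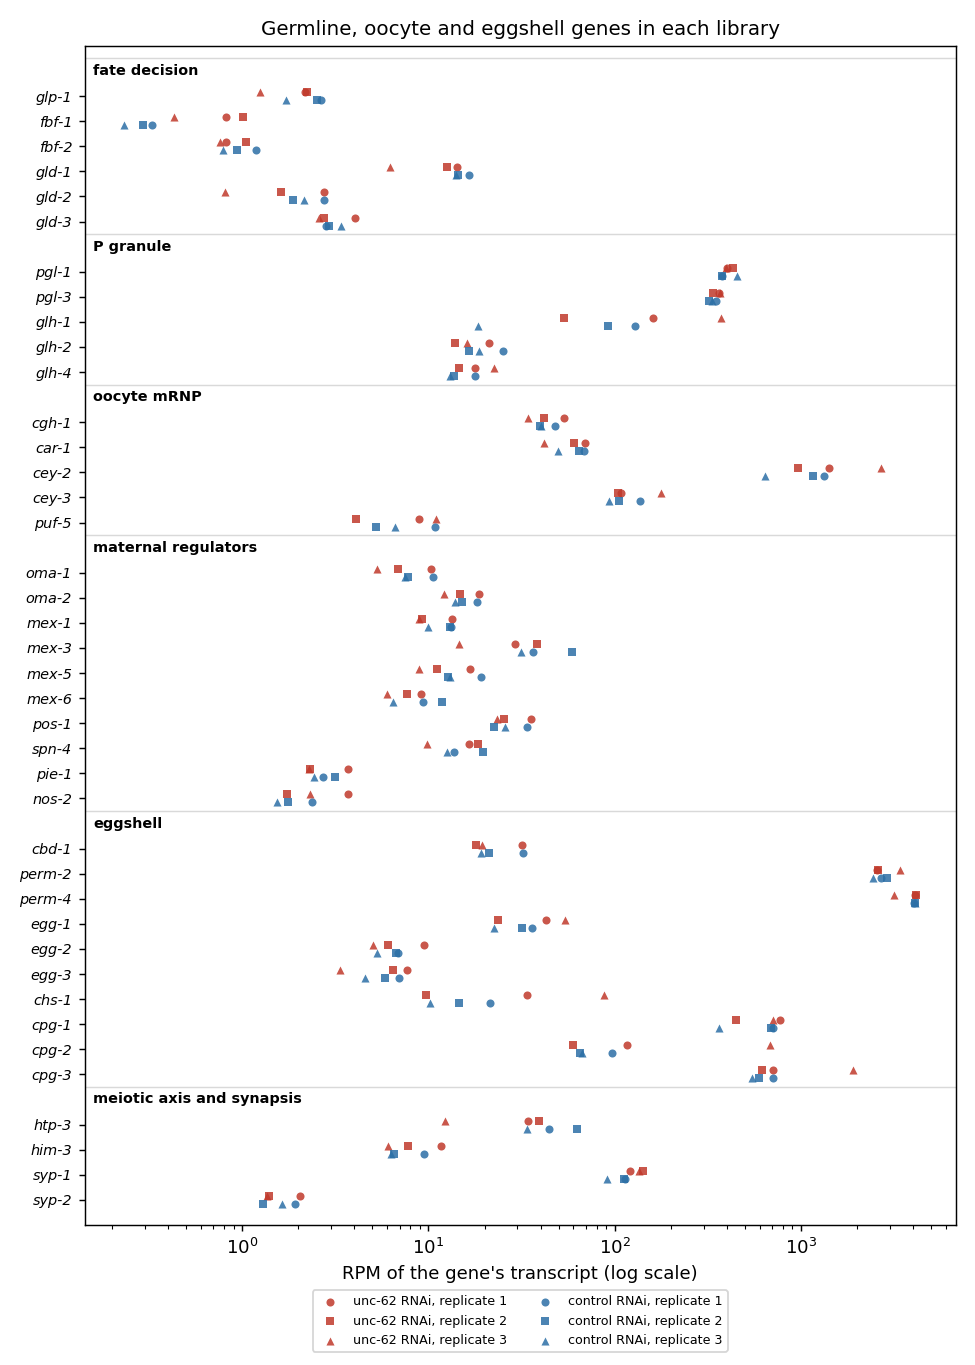
RPM (x axis, log scale) of the 40 genes in each library, grouped by role, with *unc-62* RNAi above control RNAi for each gene. Markers stand for replicates 1, 2 and 3; most genes show overlapping groups, and the triangles of replicate 3 lie farthest apart for *glh-1*, *cpg-2* and *chs-1*.

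Maternal regulators are RNA-binding proteins that act in the oocyte and the early embryo. *oma-1* and *oma-2*, CCCH zinc-finger proteins needed for oocyte maturation, had overlapping groups. *oma-1* had 10.3, 6.82 and 5.30 RPM on *unc-62* RNAi, against 10.6, 7.72 and 7.50 RPM on control RNAi, and *oma-2* had 18.7, 14.8 and 12.2 RPM on *unc-62* RNAi, against 18.2, 15.1 and 13.8 RPM on control RNAi. Their log2 fold changes were -0.26 (SE 0.21) and -0.08 (SE 0.20).

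*mex-3*, a KH-domain repressor of translation, was lower in each replicate. It had 29.3, 38.4 and 14.6 RPM on *unc-62* RNAi, against 36.3, 58.9 and 31.3 RPM on control RNAi, and the groups overlapped because replicate 2 on *unc-62* RNAi lay above 2 of the control libraries. Its log2 fold change was -0.70 (SE 0.23, 95% interval -1.298 to -0.098), with an unadjusted p of 0.030 and an adjusted p of 0.30.

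Of the CCCH proteins that set up polarity and cell fate in the embryo, *mex-5* had 16.7, 11.2 and 8.86 RPM on *unc-62* RNAi, against 19.2, 12.8 and 13.0 RPM on control RNAi, and was lower in every replicate (log2 fold change -0.34, SE 0.20, adjusted p = 0.59). *mex-6*, its paralog, had 9.17, 7.65 and 5.999 RPM on *unc-62* RNAi, against 9.35, 11.8 and 6.48 RPM on control RNAi (log2 fold change -0.28, SE 0.23). *mex-1* had 13.3, 9.27 and 8.86 RPM on *unc-62* RNAi, against 13.2, 13.1 and 9.97 RPM on control RNAi (log2 fold change -0.24, SE 0.22). All 3 had overlapping groups.

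*pos-1*, a further CCCH protein of the posterior lineage, had 35.6, 25.5 and 23.2 RPM on *unc-62* RNAi, against 33.9, 22.6 and 25.7 RPM on control RNAi (log2 fold change 0.01, 95% interval -0.49 to 0.51). *pie-1*, which keeps germline blastomeres transcriptionally silent, had 3.68, 2.32 and 2.27 RPM on *unc-62* RNAi, against 2.70, 3.16 and 2.42 RPM on control RNAi (log2 fold change -0.05, SE 0.26). *spn-4*, an RRM protein, had 16.4, 18.4 and 9.84 RPM on *unc-62* RNAi, against 13.6, 19.6 and 12.6 RPM on control RNAi (log2 fold change -0.09, SE 0.22). *nos-2*, a Nanos protein of the primordial germ cells, had the highest fold change of this role, at 3.68, 1.75 and 2.32 RPM on *unc-62* RNAi, against 2.37, 1.75 and 1.54 RPM on control RNAi (log2 fold change 0.38, SE 0.24, adjusted p = 0.63). Of the 10 maternal regulators 8 had a log2 fold change below 0 and 2 above, with a median of -0.16 and 0 called.

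The eggshell genes held most of the reads of the 40 genes. *perm-2* and *perm-4* encode proteins of the vitelline layer, the outermost part of the eggshell, and lie side by side on chromosome IV. *perm-4* had 4117, 4141 and 3167 RPM on *unc-62* RNAi, against 4048, 4099.5 and 4090.1 RPM on control RNAi, and its log2 fold change of -0.13 had the narrowest 95% interval of all the genes (-0.47 to 0.21). *perm-2* had 2575, 2595 and 3392 RPM on *unc-62* RNAi, against 2685, 2892 and 2430.0 RPM on control RNAi (log2 fold change 0.06, 95% interval -0.41 to 0.54). In replicate 3 on *unc-62* RNAi *perm-2* was at its highest and *perm-4* at its lowest. *cbd-1*, a chitin-binding protein of the same layer, had 31.6, 17.97 and 19.5 RPM on *unc-62* RNAi, against 32.3, 21.2 and 19.1 RPM on control RNAi (log2 fold change -0.10, SE 0.20).

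*egg-1* and *egg-2* encode LDL-receptor-like proteins of the oocyte surface that sperm need for entry. *egg-1* had 42.6, 23.7 and 53.8 RPM on *unc-62* RNAi, against 35.9, 31.7 and 22.5 RPM on control RNAi, and its log2 fold change of 0.34 (SE 0.38) was -0.11 without replicate 3. *egg-2* had 9.46, 6.08 and 5.03 RPM on *unc-62* RNAi, against 6.85, 6.67 and 5.31 RPM on control RNAi (log2 fold change 0.06, SE 0.23). *egg-3*, a phosphatase-like protein of the oocyte cortex, had 7.71, 6.43 and 3.35 RPM on *unc-62* RNAi, against 6.91, 5.85 and 4.57 RPM on control RNAi (log2 fold change -0.07, SE 0.22). Of these paralogs, *egg-1* was highest and *egg-2* lowest in replicate 3 on *unc-62* RNAi.

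The chitin layer and the layer beneath it are made by *chs-1*, the chitin synthase, and by the *cpg* genes, which encode chondroitin proteoglycans. *chs-1* had 33.8, 9.75 and 87.2 RPM on *unc-62* RNAi, against 21.4, 14.6 and 10.2 RPM on control RNAi. *cpg-2* had 116, 59.5 and 684 RPM on *unc-62* RNAi, against 97.2, 64.8 and 67.1 RPM on control RNAi. *cpg-3* had 707, 621 and 1904 RPM on *unc-62* RNAi, against 706, 592 and 549 RPM on control RNAi. In all 3 genes replicate 3 on *unc-62* RNAi was far above the other 5 libraries, which overlapped. Their log2 fold changes were 1.03 for *chs-1* (SE 0.72), 1.14 for *cpg-2* (SE 0.73) and 0.60 for *cpg-3* (SE 0.41), and the adjusted p was between 0.63 and 0.66. Without replicate 3 they were 0.01 for *chs-1*, 0.04 for *cpg-2* and 0.01 for *cpg-3*. Without the *unc-62* RNAi library of replicate 3 alone, in a fit with no replicate block, they were 0.20, 0.04 and 0.01. *cpg-1* had 776, 450.0 and 707 RPM on *unc-62* RNAi, against 707, 689.8 and 365 RPM on control RNAi, with a log2 fold change of 0.13 (SE 0.34) and of -0.27 without replicate 3. Of the 10 eggshell genes 7 had a log2 fold change above 0 and 3 below, with a median of 0.10 and 0 called. Their median log2 ratio was 0.13 within replicate 1, -0.22 within replicate 2 and 0.74 within replicate 3.

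Of the genes of the meiotic chromosome axis and the synaptonemal complex, *htp-3*, a HORMA-domain protein of the axis, had the lowest fold change of all 39 tested genes. It had 34.2, 39.3 and 12.3 RPM on *unc-62* RNAi, against 44.5, 62.4 and 33.8 RPM on control RNAi. Each *unc-62* RNAi library was below the control library of its replicate, and the groups overlapped because control replicate 3 lay below replicates 1 and 2 on *unc-62* RNAi. The log2 fold change was -0.86 (SE 0.27, 95% interval -1.55 to -0.16), with an unadjusted p of 0.025 and an adjusted p of 0.27. *him-3*, a HORMA-domain protein of the same axis, had 11.7, 7.78 and 6.05 RPM on *unc-62* RNAi, against 9.48, 6.55 and 6.29 RPM on control RNAi (log2 fold change 0.14, SE 0.20).

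*syp-1*, a central component of the synaptonemal complex, had 120.4, 141 and 135 RPM on *unc-62* RNAi, against 114, 112 and 91.4 RPM on control RNAi. It was higher in all 3 replicates, with a log2 fold change of 0.30 (95% interval -0.20 to 0.81, adjusted p = 0.63). Its partner *syp-2* had 2.04, 1.399 and 1.35 RPM on *unc-62* RNAi, against 1.91, 1.29 and 1.63 RPM on control RNAi (log2 fold change -0.04, SE 0.22). Over the whole list, on the TMM-scaled ratios (TMM is a scaling of each library to a common level over genes), 1 of 39 genes, *syp-1*, was higher and 10 were lower on *unc-62* RNAi in all 3 replicates, where 16.4% and 19.8% of all tested genes were. The 10 were *glp-1*, *gld-1*, *gld-2*, *glh-2*, *oma-1*, *mex-1*, *mex-3*, *mex-5*, *mex-6* and *htp-3*. On RPM as deposited *pgl-3* and *cpg-3* joined *syp-1*, and *mex-1* was not lower in replicate 1, which gives 3 higher and 9 lower, where 17.3% and 17.9% of all tested genes were.

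The replicates differed in how far these genes moved. The standard deviation of the log2 ratio over the 39 genes was 0.27 in replicate 1 and 0.28 in replicate 2, below the 0.66 and 0.70 of all tested genes. In replicate 3 it was 1.23 for the 39 genes and 1.23 for all tested genes. More than a 2-fold difference in either direction was seen for 0 of the 39 genes within replicate 1 (9.31% of all tested genes), for 0 within replicate 2 (11.4%) and for 10 within replicate 3 (22.7%). The 10 were *glh-1*, *cpg-2*, *chs-1*, *cey-2*, *cpg-3* and *egg-1*, which were higher on *unc-62* RNAi, and *htp-3*, *gld-2*, *gld-1* and *mex-3*, which were lower.

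**Figure D3:**
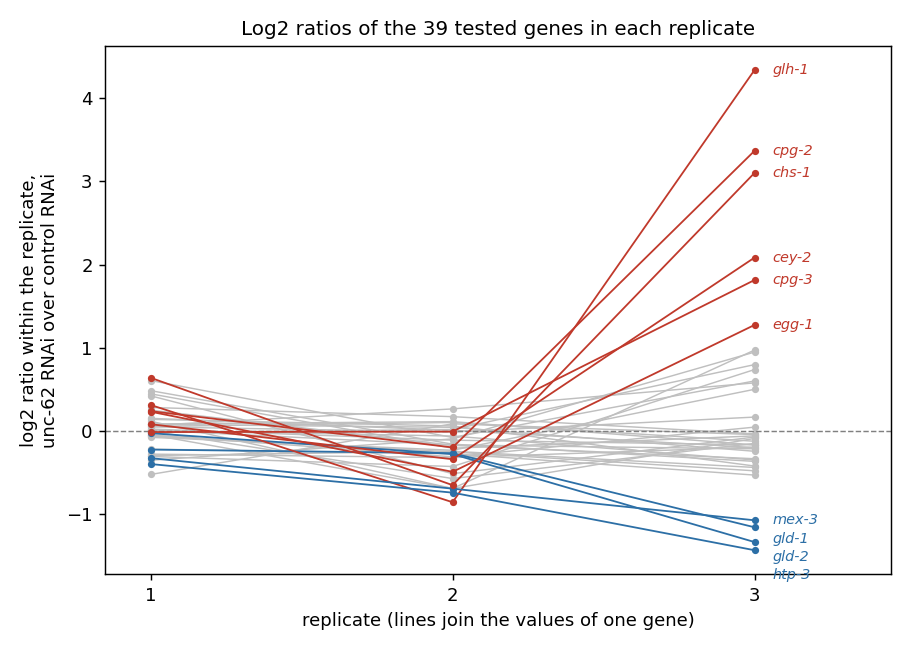
Log2 ratio of *unc-62* RNAi to control RNAi within each replicate (y axis) for the 39 tested genes, each joined by a line. Red lines are the 6 genes over 2-fold higher and blue lines the 4 over 2-fold lower within replicate 3, and grey lines are the other 29; in replicates 1 and 2 all values lie between -1 and 1.

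The 6 genes raised within replicate 3 ranged from 1.27 for *egg-1* to 4.34 for *glh-1* in that replicate. On the same TMM-scaled ratios their values within replicate 2 ran from -0.86 for *glh-1* to -0.01 for *cpg-3*, which was above its control library there in RPM as deposited. The other 33 tested genes had a standard deviation of 0.59 within replicate 3, against 0.26 and 0.27 within replicates 1 and 2. Replicate 1 on *unc-62* RNAi was the highest library for 13 of the 40 genes (34.6% of all tested genes) and replicate 3 on *unc-62* RNAi for 11 (19.01%). Replicate 3 on *unc-62* RNAi was the lowest library for 20 (31.1%) and control replicate 3 for 11 (25.9%). The cause of this spread was not tested.

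Leaving out replicate 3 from both groups raised the number of called genes to 1183 of 7701, or 15.4%. In that fit 3 of the 40 germline genes were called, and 2 of them, *htp-3* (log2 fold change -0.55, adjusted p = 0.052) and *mex-3* (-0.49, adjusted p = 0.098), were also tested with all libraries. The other, *fbf-1*, passed the filter only through the 14 and 23 reads of the *unc-62* RNAi libraries, where it is high, and only once the library with 8 reads was left out, so its call is no support. With all libraries *htp-3* and *mex-3* had fold changes of larger size, -0.86 and -0.70. The calls rest on 2 libraries per group, and limma then takes the error of a gene largely from the other genes. The lower adjusted p is thus no stronger evidence than that of the fit with all libraries. Leaving out replicate 1 or replicate 2 called 0 of the germline genes and 0 and 15 of all tested genes.

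For 19 of the 40 genes more than 1 transcript is listed. Of the genes compared below, only *cpg-1* had a highest and a lowest listing that moved in opposite directions within replicate 3. Listings of a gene can share reads, so the highest minus the lowest is a remainder and not a transcript. The highest and the lowest listed transcript by mean RPM were compared for the 6 genes with more than 1 listing and a log2 ratio over 0.5 within replicate 3, a choice made after the values were seen. For *cey-2* the lowest listing had 1095, 765 and 2376 RPM on *unc-62* RNAi, against 1062, 929 and 415 RPM on control RNAi. The highest listing minus the lowest gave 321, 196 and 311 RPM on *unc-62* RNAi, against 262, 226 and 227 RPM on control RNAi. Within replicate 3 the log2 ratio was thus 2.52 for the lowest listing and 0.45 for the remainder.

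The same split was seen in *cey-3*, *chs-1* and *glh-4*. In *cey-3* the lowest listing had 39.7, 43.1 and 128 RPM on *unc-62* RNAi, against 79.2, 53.3 and 43.9 RPM on control RNAi, while the remainder was between 48.9 and 68.3 RPM in all 6 libraries. In *chs-1* the log2 ratio within replicate 3 was 3.63 for the lowest listing and 0.34 for the remainder, and in *glh-4* it was 1.10 and 0.25. In *cpg-1* it was the other way round, with -0.28 for the lowest listing and 1.64 for the remainder. The listings of *cpg-3* held almost the same reads, and their ratios were 1.80 for the lowest listing and -0.12 for a remainder of 2.28 to 7.18 RPM. Transcript structures of the WS215 annotation were not used here, so where in these genes the reads lie was not analysed.

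**Figure D4:**
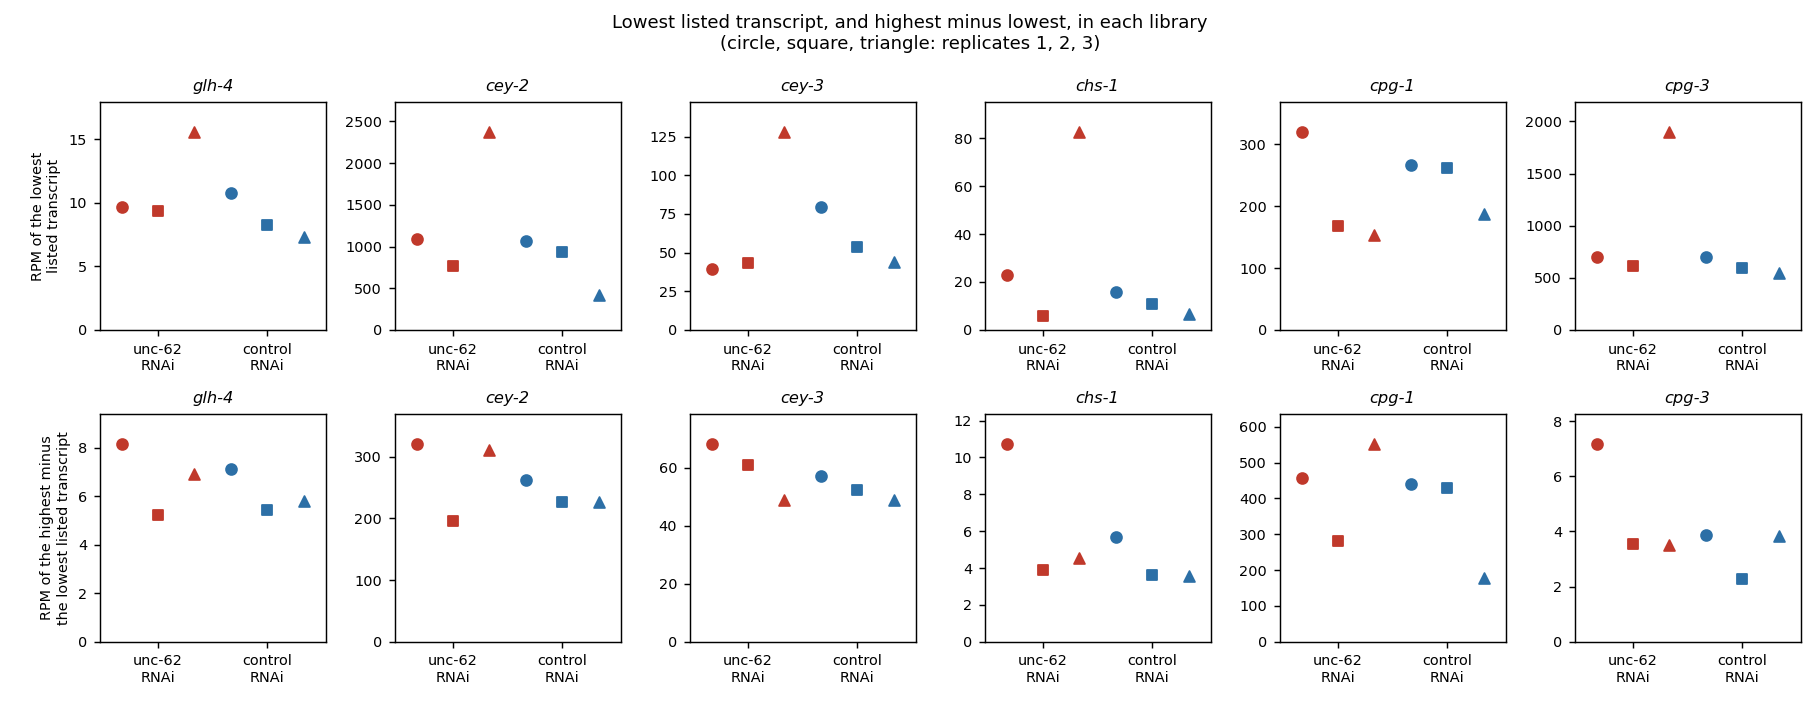
RPM in each library (y axes, from 0) of the lowest listed transcript of 6 genes (upper panels) and of the highest minus the lowest listed transcript (lower panels), with *unc-62* RNAi in red at the left and control RNAi in blue at the right. For *glh-4*, *cey-2*, *cey-3*, *chs-1* and *cpg-3* the triangle of *unc-62* RNAi replicate 3 is highest in the upper panel, and for *cpg-1* in the lower panel.

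Summed over the 40 genes, the level was 11389, 10298 and 14407 RPM on *unc-62* RNAi, against 11182, 10980.5 and 9507 RPM on control RNAi. The mean was 12032 ± 2129 RPM on *unc-62* RNAi and 10556 ± 915 RPM on control RNAi (SD, n = 3 each), and the groups differed by less than 1 SD of the *unc-62* RNAi libraries. The 40 genes took between 0.951% and 1.44% of the uniquely mapped reads, and *perm-2* with *perm-4* made up between 45.5% and 68.6% of the sum. Without this pair the sum was 4696, 3562 and 7848 RPM on *unc-62* RNAi, against 4449, 3989 and 2987 RPM on control RNAi. Replicate 3 held the highest library on *unc-62* RNAi and the lowest on control RNAi in both sums.

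Germline genes outside the 40 were read in the same fit. Of 101 further genes of germline RNA regulation, meiosis, oocytes and egg activation, and maternal control of the embryo, 100 were matched and 95 tested. limma called 0 of them, 48 had a log2 fold change above 0 and 47 below, and the median was 0.00. At an unadjusted p of 0.05 6 passed, all of them lower, of 95, where 13.3% of all tested genes passed. The lowest fold change was that of *par-6*, a polarity protein of the embryo, at 7.82, 6.43 and 3.46 RPM on *unc-62* RNAi, against 20.3, 14.3 and 18.1 RPM on control RNAi. The groups of *par-6* did not overlap (log2 fold change -1.65, SE 0.30, adjusted p = 0.12). Over the other fits its adjusted p was between 2.3e-05, without replicate 3, and 0.52, without replicate 1, and it passed in 5 of 17 of them, including the fit with no replicate block (0.061) and DESeq2 (0.0045). edgeR called 0 of the 95 and DESeq2 called 2, where they called 1.38% and 4.01% of all tested genes. The 2 were *par-6* and *larp-1*, both lower. At an unadjusted p of 0.05 edgeR had 5 of the 95 lower, and no share of all tested genes was counted for it. *larp-1*, an RNA-binding protein of the La family, was chosen after its values were seen. It had 23.0, 15.2 and 15.9 RPM on *unc-62* RNAi, against 38.1, 30.3 and 34.0 RPM on control RNAi (limma log2 fold change -0.96, adjusted p = 0.15).

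Within replicate 3, 6 of the 95 further genes were over 2-fold higher on *unc-62* RNAi, where 15.6% of all tested genes were. *htp-1*, a HORMA-domain protein of the meiotic axis, had 7.65, 2.89 and 21.3 RPM on *unc-62* RNAi, against 5.201, 3.74 and 2.47 RPM on control RNAi (log2 fold change 1.07, SE 0.70). *ife-5*, a germline eIF4E, had 3.74, 1.05 and 11.03 RPM on *unc-62* RNAi, against 2.70, 2.40 and 0.606 RPM on control RNAi (log2 fold change 1.11, SE 1.02). *par-5*, a 14-3-3 protein of embryonic polarity, had 138, 66.4 and 559.8 RPM on *unc-62* RNAi, against 141.6, 93.1 and 74.2 RPM on control RNAi (log2 fold change 0.77, SE 0.71). None of the 3 was called, with adjusted p between 0.63 and 0.72.

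Other genes at the ends of these lists were not called either. *meg-3*, a P granule protein of the embryo, had 1.05, 0.612 and 0.432 RPM on *unc-62* RNAi, against 1.51, 1.05 and 1.77 RPM on control RNAi (log2 fold change -1.08, adjusted p = 0.29), with no overlap between the groups. *brc-1*, the BRCA1 ortholog, was at -0.71, *cav-1*, a caveolin, at -0.39 and *air-2*, the Aurora B kinase, at 0.50 on the log2 fold change scale. The genes with the most reads in 3 of the lists were not called. *ife-1*, an eIF4E of the germline, had 565, 521 and 756 RPM on *unc-62* RNAi, against 556, 467 and 496 RPM on control RNAi. *syp-4*, of the synaptonemal complex, had 197, 236 and 232 RPM on *unc-62* RNAi, against 212, 209.8 and 152 RPM on control RNAi, and *egg-5*, a phosphatase-like partner of EGG-3, had 473, 629 and 409.9 RPM on *unc-62* RNAi, against 483, 578 and 598 RPM on control RNAi. Their log2 fold changes were 0.24 for *ife-1*, 0.20 for *syp-4* and -0.18 for *egg-5*.

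Markers of other cells that a sterile adult could hold were read beside these genes. Of 12 sperm genes 3 passed the filter, all of them major sperm protein genes. limma and edgeR called 0 of the 3. DESeq2 called all 3, lower on *unc-62* RNAi, where it called 4.01% of all tested genes. All 3 had an unadjusted p under 0.05 in limma, where 13.3% of all tested genes did. Reads that fit more than 1 gene of this family were left out by the unique mapping, so the levels of the 3 are uncertain. The other 9, *spe-9* among them, had at most 13 reads in a library. The summed level of the 12 was between 9.24 and 18.7 RPM on *unc-62* RNAi and between 16.3 and 47.9 RPM on control RNAi, and the log2 fold change of *msp-3* was -1.36 (adjusted p = 0.14). Of 6 somatic gonad genes 2 passed the filter and 0 were called by any of the 3 tools or at an unadjusted p of 0.05, while *lag-2*, *ceh-18*, *lim-7* and *fkh-6* had at most 2 reads in a library. The sum of the 6 was between 2.22 and 6.66 RPM on *unc-62* RNAi and between 4.56 and 6.78 RPM on control RNAi. Of 12 genes of the early embryo with its own transcription 7 were matched and 1 passed the filter, with *hnd-1* at 0 reads in all libraries and a sum of at most 2.28 RPM on *unc-62* RNAi and at most 1.98 RPM on control RNAi. Of 8 genes of the soma 5 passed the filter, and limma, edgeR and DESeq2 each called 0. At an unadjusted p of 0.05 limma had 1 higher and 3 lower, where 13.3% of all tested genes passed. The 1 higher was *ges-1*, a gut esterase. It had 46, 28 and 20 reads on *unc-62* RNAi, against 18, 5 and 20 reads on control RNAi. The 3 lower were *unc-54*, *myo-3* and *col-19*. *elt-2*, a regulator of gut genes, did not pass and had a log2 fold change of -0.32. At an unadjusted p of 0.05 edgeR also had 1 higher and 3 lower, and DESeq2 had 0 higher and 3 lower. No share of all tested genes at that level was counted for edgeR and DESeq2. The sum of the 8 was between 193 and 366 RPM on *unc-62* RNAi and between 332 and 679 RPM on control RNAi, but *col-19*, a cuticle collagen, made up at least 90.2% of it in every library. Without *col-19* the sum was between 11.5 and 18.98 RPM on *unc-62* RNAi and between 18.03 and 32.4 RPM on control RNAi, with overlap. The part of these cells in the germline results was not tested.

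The 40 genes were spread over the autosomes. Chromosome I held 12 of them, chromosome II 8, chromosomes III and IV 7 each and chromosome V 6, and the X chromosome held 0, where 8.84% of all tested genes lie on the X. Among genes that lie close together, *pgl-1* and *him-3* are adjacent, with log2 fold changes of 0.01 and 0.14. *perm-2* and *perm-4* are also adjacent, with log2 fold changes of 0.06 and -0.13. Whether neighbours changed together was not tested. *fbf-1* and *fbf-2* have 1 protein-coding gene between them and *cey-2* and *cey-3* have 9. These positions are from the RefSeq annotation of WBcel235, a later build than that of the reads. Its start positions were used only to put the genes in order.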

How the data were processed

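The libraries were made from poly-A RNA by 3′SEQ, in which oligo-dT primers capture the 3′ ends of sheared mRNA (400 ng of mRNA, single reads of 36 bases). Per the labels and the methods of the study, the authors used CASAVA 1.7.0 and Bowtie 0.12.7 and the WS215 annotation, allowed mismatches, and counted, on the sense strand only, reads with a unique best place. Reads shared by similar paralogs (*fbf-1* and *fbf-2*, *cey-2* and *cey-3*, *oma-1* and *oma-2*, *mex-5* and *mex-6*, *egg-1* and *egg-2*) were therefore left out where they fit both. The deposited signal is RPM, a read number scaled to the uniquely mapped reads of the library, for 25531 transcripts. The smallest positive signal gave the value of 1 read, and 100.0% of 153186 values were whole reads within 0.01. The 2 rows that name no gene held 0 reads.

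For each gene the transcript with the highest mean RPM was used. Genes with at least 10 reads in all 3 libraries of a group were tested. The fit was limma 3.58.1 (R 4.3.3) on log2(RPM + 0.05) after TMM scaling from edgeR 4.0.16, with a trend in the variance, a block for the replicate, and p-values adjusted by Benjamini-Hochberg over the 7333 genes with a threshold of 0.1. Fold changes are on this log2 scale, which understates changes of low genes. Ratios within a replicate are on the same scale, TMM included, and those of listed transcripts are of RPM as deposited. The fit was tested on simulated data. Alternatives were edgeR's quasi-likelihood test and DESeq2 1.42.0 on the recovered reads, a fit with no replicate block, other scalings, pseudocount and filter, sums over transcripts, and fits without each replicate. Fits without a single library and TMM scaling on all uniquely mapped reads were added after seeing the data. Tables were made in Python 3.11.15 with pandas 2.3.3, numpy 2.4.6 and scipy 1.17.1, and figures with matplotlib 3.10.9.

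The 40 genes and all lists were chosen with earlier results of these data known. All 40 were to be named, and of the other lists the called, the most abundant and the extreme genes. Symbols were matched through the RefSeq table of WBcel235, which tags 16959 of 17682 genes. The 40 genes and their lists were described by counts and medians, with no test of a list. The block follows the study, which took fold changes within replicates. Whether equal numbers mark 1 batch is not stated for the libraries. Deviations from the group means had correlations of 0.42 (replicate 1), 0.20 (replicate 2) and -0.18 (replicate 3). Pairs of unlike number ran from -0.50 to 0.26, so these values do not bear out the pairing in replicates 2 and 3. All ratios within a replicate rest on this pairing. Replicates were of separate batches, and no pair of libraries of a group differed by as little as sampling noise.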

Additional observations from a re-analysis of the deposited data

How the results depend on the processing

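The count of 0 called genes among the 40 held in all 8 alternatives that keep all libraries, with the lowest adjusted p at 0.26, and it held without each single library and without replicate 1 or replicate 2. Without replicate 3 it was 3, so the count ran from 0 to 3 over the fits that leave out libraries, and from 0 to 2 with *fbf-1* not counted, since it passed the filter only through the libraries where it is high. With no replicate block it was 0, with 0 genes against 2 at an unadjusted p of 0.05, and over all tested genes 60 were called higher and 82 lower. Over all tested genes DESeq2 called 294 and the fit with no filter on low counts 253, against 96, and the fits that leave out libraries called between 0 and 1183. The median log2 fold change of the 40 genes was between -0.09 and 0.02 over all alternatives. Their summed level differed by 1475 RPM between the treatments. With sums over transcripts the difference was 3736 RPM, but reads shared by listings of a gene count more than once there. It was 2109 RPM without replicate 1, 2554 RPM without replicate 2 and -237 RPM without replicate 3.

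Of 665 values of single genes of the 40 under alternatives, 66 changed sign, in 21 genes, to values of at most 0.36 in size, and 3 passed the threshold. With all libraries kept, signs changed to 0.011 for *gld-3* and 0.011 for *cgh-1* without TMM scaling. With TMM scaling on uniquely mapped reads the values were -0.00938 for *pgl-1*, -0.0175 for *puf-5* and -0.00805 for *pos-1*, and with sums over transcripts -0.0108 for *pgl-1*, -0.014 for *puf-5* and -0.00526 for *pos-1*. *puf-5* was at -0.00485 in DESeq2 and -0.00151 with no filter. In the fits that leave out libraries the log2 fold change ran from -0.22 to 0.0033 for *car-1*, from -0.27 to 0.0158 for *cbd-1*, from -0.11 to 1.08 for *cey-2*, from -0.20 to 0.44 for *cey-3*, from -0.0908 to 0.10 for *cgh-1*, from -0.27 to 0.55 for *cpg-1*, from -0.11 to 0.76 for *egg-1*, from -0.12 to 0.20 for *egg-2* and from -0.23 to 0.20 for *egg-3*. It ran from -0.39 to 0.0186 for *egg-5*, from -0.32 to 0.0351 for *fbf-2*, from -0.25 to 0.18 for *gld-3*, from -0.25 to 2.33 for *glh-1*, from -0.0272 to 0.28 for *him-3*, from -1.20 to -0.42 for *htp-3*, from -0.00141 to 0.38 for *ife-1* and from -0.37 to 2.28 for *ife-5*. It also ran from -1.06 to -0.88 for *larp-1*, from -1.03 to -0.37 for *mex-3*, from -1.94 to -0.92 for *msp-3*, from -0.29 to 1.44 for *par-5*, from -1.87 to -1.28 for *par-6*, from -0.15 to 0.22 for *perm-2*, from -0.16 to 0.14 for *pgl-1*, from -0.0364 to 0.14 for *pgl-3*, from -0.28 to 0.18 for *pie-1*, from -0.084 to 0.0986 for *pos-1*, from -0.36 to 0.39 for *puf-5*, from -0.30 to 0.17 for *spn-4* and from -0.14 to 0.0814 for *syp-2*.

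These data have 3 libraries per group, with treatment and lane confounded. Genes with few reads (*fbf-1*, *fbf-2*, *syp-2*) allow no fine statement, and intervals of *glh-1*, *chs-1* and *cpg-2* reach beyond a 4-fold increase. Whole-worm RNA does not give the level in germ cells.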
